A study of Mus musculus with 26 samples.

Results

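Untreated mouse embryonic stem cells lacking HMCES were compared with wild-type (WT) cells in the 4 RNA-seq libraries of a deposited table of TPM, a level per gene made from reads per base of transcript and set to the same sum in every library. The members were chosen by the column names of that table, which the labels map to 2 WT and 2 HMCES-KO libraries out of 26 libraries in the whole series. Per the labels, all cells were mouse embryonic stem cells of the C57BL/6 strain, with the genotype wild type or HMCES-KO, grown without treatment on gelatin in a medium with 15% serum. The WT columns carry the name CCE and the HMCES-KO columns the name K8. Whether these names stand for another parent line or for 1 knockout clone is not stated in the sources used here, and neither is the way the gene was disrupted. The other libraries of untreated cells, in a separate count table, were 2 of WT and 4 of HMCES-KO from the lines named KO7 and KO8 there, with 2 libraries a line. They carry the same strain, genotype and treatment labels and served for comparison.

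HMCES is a protein that binds DNA at abasic sites, where a base has been lost, and early work described it as a reader of 5-hydroxymethylcytosine. The question of the series was its effect on transcription under Nodal/activin and BMP signalling in these cells. Nodal and activin bind type I and type II receptor kinases that phosphorylate SMAD2 and SMAD3, while BMPs act through SMAD1 and SMAD5. Both groups of SMADs share SMAD4 and switch on target genes that include their own brakes, such as the secreted antagonists Lefty1 and Lefty2 and the inhibitory SMADs. In serum-grown embryonic stem cells, Nodal is made by the cells themselves, and BMP activity induces the Id genes, which restrain differentiation.

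The reads behind the TPM were recovered with the gene lengths of the count table, which lists the same 25239 genes, and 100% of the values came out whole within 0.01 reads. Recovered totals, in units of 1000000 reads, were 9.79 and 9.50 in WT and 10.0 and 8.52 in HMCES-KO. The 1334 genes under 200 bases, which held 0.995% to 1.05% of the TPM of a library, were set apart. No library appeared in both untreated tables: a TPM library and a count-table library had the same read number in at most 0.744% of the genes with 20 or more reads in either. The cells carried embryonic stem cell markers in every library, with Pou5f1, a core pluripotency factor, at 3619.8 and 3684 TPM in WT and 3709.7 and 3673 TPM in HMCES-KO. Of the other markers, Nanog and Esrrb were called lower in HMCES-KO (-0.29 and -0.17), while Sox2 and Zfp42 were not called. Of 10 fibroblast markers 3 passed the filter on low values, of which Vim was called higher (0.30), Thy1 lower (-0.56) and 1 was not called. The list summed to 447 and 458 TPM in WT and 547 and 530.4 TPM in HMCES-KO, Postn, Lum and Dcn were listed at 0 in every library, and the part of fibroblasts in the results was not tested. The labels do not tell whether replicates are separate cultures. The p-values therefore cover only the variation among these 4 libraries, and that variation may be technical.

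Hmces, the targeted gene (mm10, chromosome 6, 87913976-87936613, plus strand), was measured at 755 and 750.2 TPM in WT and 159.5 and 166 TPM in HMCES-KO. The HMCES-KO libraries therefore held 21.6% of the WT mean, and the groups did not overlap. The difference was -2.20 ± 0.04 (SE) on the scale of log2(TPM + 1), on which all fold changes below are given as HMCES-KO minus WT, with a limma adjusted p of 8.6e-07. Because 1 is added to TPM before the log, changes of low genes come out too small on this scale.

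Of 13102 genes that reached a TPM of 1 in 2 or more libraries, 2426 (18.5%) differed at a limma adjusted p under 0.05, Benjamini-Hochberg adjusted over all of them. HMCES-KO was higher for 895 genes (6.83%) and lower for 1531 (11.7%), and the difference was at least 2-fold for 58 and 133 of these. With TMM scaling the split turned, to 1277 higher and 1091 lower, so that the share of higher calls went from 36.9% to 53.9% with the median gene moving from -0.05 to -0.00. The number of calls depended on the library left out: it fell without either WT library and rose without either HMCES-KO library. In such a refit the variance comes only from the group that keeps 2 libraries. A chi-square per gene for the spread between replicates, over that of read sampling, was 1.53 for WT and 2.35 for HMCES-KO. In bulk RNA, fewer cells of a type and less RNA per cell cannot be told apart. Below, a gene is called or not called by limma unless another tool is named. Each count over a list stands against these 6.83% of all genes higher and 11.7% lower. Differences were above 0 for 40.8% of all genes tested, beside which counts of members above or below 0 stand. Of the 415 tested genes that the naming rule covers, 156 were called, and 89 of these stayed called whichever library was left out. Of the rest, Blnk and Prss42 passed the filter on low values only in the 2 refits that kept both WT libraries. The refits could therefore not test their calls. The share of calls that held in such refits over all genes is not given here, and the naming rule includes the largest changes. An adjusted p given below for a refit without 1 library is the highest of that gene's refits.

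Among the largest rises, transcription regulators stood beside Y-linked genes and small noncoding RNAs. Id2, an inhibitor of basic helix-loop-helix factors and a BMP target, rose most, from 52.2 and 53.4 TPM in the WT libraries to 207 and 226 TPM in the HMCES-KO libraries, 4.11 times the WT mean (2.02 ± 0.06, adjusted p 5.9e-06). Vax2, a homeobox factor of the ventral eye, was at 7.62 and 7.55 TPM in WT and 30.2 and 32.2 TPM in HMCES-KO (1.91 ± 0.11, adjusted p 0.00016). Hoxa10 rose from 0.672 and 1.08 to 6.87 and 4.50 TPM, and Mira, a noncoding transcript of the same cluster on chromosome 6, from 4.17 and 1.16 to 9.75 and 8.45 TPM. The strand setting of the counting is not given, so reads of overlapping transcripts in that cluster cannot be told apart. Gna14, a G protein alpha subunit, rose from 3.75 and 4.65 to 14.2 and 18.8 TPM, and Rhob, a small GTPase of the actin cytoskeleton, from 53.1 and 49.0 to 142 and 146 TPM (1.48 ± 0.06, adjusted p 3.8e-05).

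The RNA components of RNase P and RNase MRP also rose. Rpph1 was at 3.71 and 3.80 TPM in WT and 21.3 and 9.32 TPM in HMCES-KO, and Rmrp at 5.49 and 8.98 TPM in WT and 17.8 and 25.7 TPM in HMCES-KO. The naming rule required that both HMCES-KO libraries lie above both WT libraries for each. The HMCES-KO values of Rpph1 differed from each other by more than its WT values did. Their transcripts are 325 and 275 bases long, short for an RNA-seq library. Without the filter on low values the calls of Mira and Rpph1 were lost.

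The largest fall on the log2(TPM + 1) scale was that of Pla2g1b, a secreted phospholipase A2, which went from 175 and 168 TPM in WT to 26.0 and 27.2 TPM in HMCES-KO, 6.44 times lower (-2.64 ± 0.06, adjusted p 2.3e-06). Khdc3, a member of the oocyte and embryo complex that is also made in embryonic stem cells, fell from 353 and 346 to 82.3 and 87.1 TPM (-2.03 ± 0.05, adjusted p 2.3e-06). Aire, the regulator that drives self-antigen expression in the thymus, fell from 28.9 and 27.0 to 4.69 and 5.82 TPM. Rnf17, a germ cell protein with Tudor domains, fell from 24.2 and 24.9 to 7.05 and 7.33 TPM, and Steap3, an iron reductase, from 25.3 and 21.4 to 7.07 and 6.25 TPM. Prmt8, an arginine methyltransferase, fell from 16.8 and 14.8 to 2.58 and 4.11 TPM. The remaining falls were of genes with lower levels: Catip, Tesc, Ceacam20, Prss42 and Blnk ended between 0.497 and 4.93 TPM in the HMCES-KO libraries. At a pseudocount of 0.1 the falls of Prss42 (-2.89) and Ceacam20 (-2.80) were larger than that of Pla2g1b (-2.68). With Hmces itself these are 12 genes, and for each of them both HMCES-KO libraries lay below both WT libraries. Such separation is part of the naming rule, and over all tested genes it held for 39.4% in this direction and for 23.4% in the other.

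**Figure D1:**
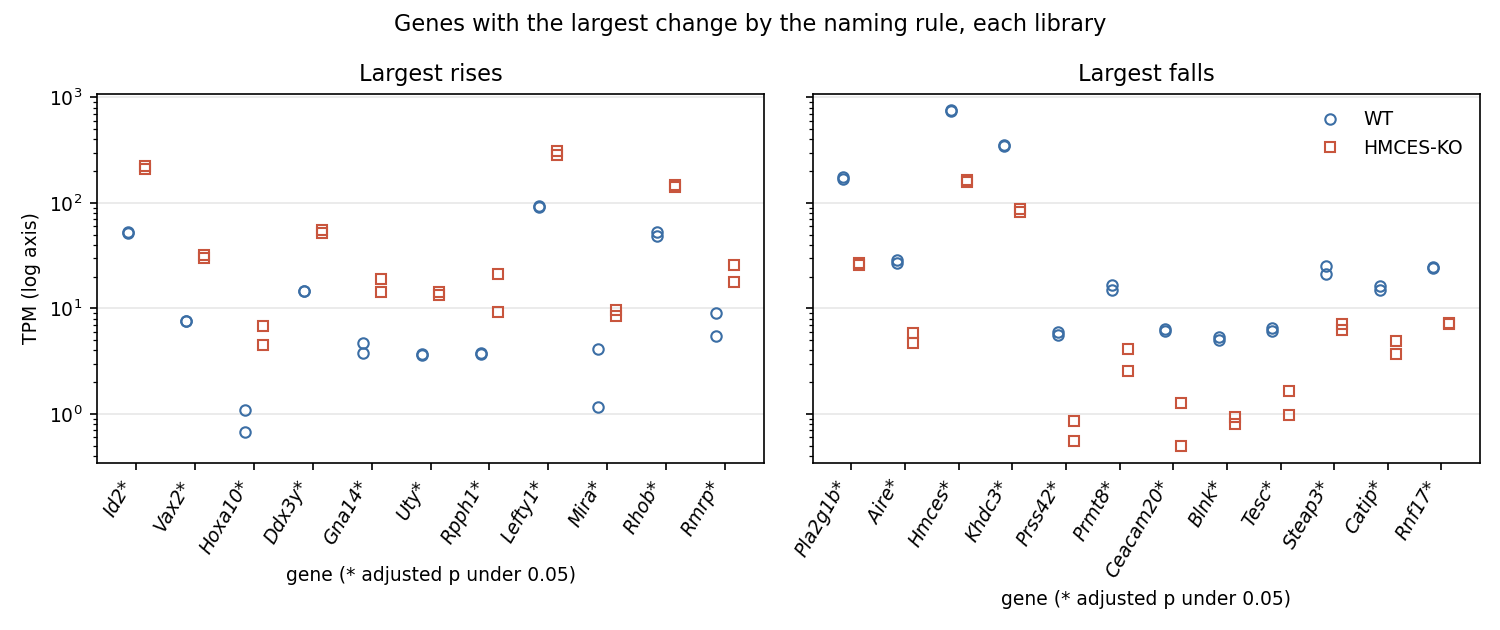
TPM (log axis) in each library of genes with the largest rise (left) and the 12 genes with the largest fall (right) among called genes with a mean of at least 5 TPM in 1 group. Circles are the 2 WT libraries and squares the 2 HMCES-KO libraries. Id2 separates the groups by 4.11 times, while the squares of Rpph1 lie at 21.3 and 9.32 TPM.

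Several targets of Nodal/activin signalling rose, among them Lefty1, Lefty2 and Trh, and limma called none of them lower (2 at an unadjusted p under 0.05, 0 in edgeR and 0 in DESeq2). Of 14 tested members of the list of 16, 7 were called higher against 6.83% of all genes, and the median difference was 0.33 against -0.05 over all genes. The ligand Nodal itself and the inhibitory Smad7 were not called. The list was written with earlier results of these data known, so its count is a description.

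Lefty1, a secreted Nodal antagonist, was at 94.4 and 90.6 TPM in WT and 310.2 and 283 TPM in HMCES-KO (1.67 ± 0.06, adjusted p 1.5e-05). Its neighbour on chromosome 1, Lefty2, was at 86.0 and 80.1 TPM in WT and 232 and 222 TPM in HMCES-KO (1.44 ± 0.05, adjusted p 2.7e-05). These genes have similar sequences, and how reads that fit both were counted is not given. Trh, the precursor of thyrotropin-releasing hormone, was the most abundant of these, at 725 and 715 TPM in WT and 1641 and 1699 TPM in HMCES-KO (1.21 ± 0.03, adjusted p 4.7e-06). In all 3 genes the HMCES-KO libraries were close to each other and far above both WT libraries.

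Smaller rises followed. Gdf3, a ligand that signals through the Nodal receptors, went from 333 and 324 to 422 and 410.5 TPM (0.34 ± 0.04, adjusted p 0.002), and Skil, which encodes the SMAD corepressor SnoN, from 153 and 154 to 196 and 188 TPM (0.33 ± 0.04, adjusted p 0.0043). Otx2, a homeobox factor of the epiblast, went from 26.5 and 27.0 to 33.2 and 36.0 TPM (0.36 ± 0.08, adjusted p 0.025). The call of Otx2 was lost when 1 library was left out, with an adjusted p of 0.099 without WT replicate 1, and in DESeq2. Members not called included Nodal (161 and 167 TPM in WT and 155 and 157 TPM in HMCES-KO, -0.07 ± 0.04, adjusted p 0.29) and its co-receptor Tdgf1 (0.12 ± 0.04, adjusted p 0.077), which edgeR and DESeq2 called higher (adjusted p 0.00044 and 0.0033). Smad7, which blocks receptor signalling in both pathways, was at 156 and 156 TPM in WT and 142 and 137 TPM in HMCES-KO (-0.16 ± 0.04, adjusted p 0.0501). Cer1, another Nodal antagonist, was listed at 0 in every library.

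Single BMP targets moved in both directions, with the lower calls near the share of all genes. Of 12 tested members of the list of 15, 3 were called higher and 2 lower against 6.83% and 11.7% of all genes, with a median of 0.32. Beside Id2, Id1, which holds back differentiation downstream of BMP, was at 328 and 315 TPM in WT and 788 and 771 TPM in HMCES-KO (1.28 ± 0.04, adjusted p 5.9e-06). Hes1, a Notch and BMP responsive repressor, went from 118 and 103 to 160.5 and 148 TPM (0.48 ± 0.07, adjusted p 0.0065). Tbx3, a T-box factor of naive pluripotency, fell from 213 and 216 to 138 and 134 TPM (-0.65 ± 0.04, adjusted p 0.00033), and Dusp9, a phosphatase that damps ERK, from 326 and 311 to 258 and 237 TPM (-0.36 ± 0.05, adjusted p 0.0051). These 5 calls held whichever library was left out.

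The remaining Id genes did not pass the threshold. Id3 was at 68.4 and 80.6 TPM in WT and 106 and 87.3 TPM in HMCES-KO (0.37 ± 0.11, adjusted p 0.055, and 0.0062 in edgeR), so both HMCES-KO libraries lay above both WT libraries by less than the spread allows to call. Id4 was at 3.35 to 4.28 TPM in all 4 libraries. The inhibitory Smad6 (-0.15 ± 0.18, adjusted p 0.59) and the pseudoreceptor Bambi (0.27 ± 0.15, adjusted p 0.23) were not called, and Msx1, a homeobox target of BMP, was below 0.2 TPM throughout.

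Promoter sequence is shown for the SMAD targets that moved and for which RefSeq gave a window, 3 of 9 searched (Id2, Trh and Otx2), to set the letters beside genes that changed together. Each window holds the 250 bases before the annotated start on GRCm38.p6, read along the gene's strand, which is minus for all 3. Capitals mark GGCGCC, a GC-rich SMAD element that reads the same on both strands, in Id2 (chr12:25096093-25096342) and Trh (chr6:92244651-92244900). In Otx2 (chr14:48667645-48667894) they mark AATNNACA, a FOXH1 element searched on both strands and found there on the reverse.
Id2: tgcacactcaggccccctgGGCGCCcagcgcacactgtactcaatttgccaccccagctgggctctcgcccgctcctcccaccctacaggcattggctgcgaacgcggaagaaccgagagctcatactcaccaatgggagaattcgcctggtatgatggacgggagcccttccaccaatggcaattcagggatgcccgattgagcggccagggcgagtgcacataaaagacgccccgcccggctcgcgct
Trh: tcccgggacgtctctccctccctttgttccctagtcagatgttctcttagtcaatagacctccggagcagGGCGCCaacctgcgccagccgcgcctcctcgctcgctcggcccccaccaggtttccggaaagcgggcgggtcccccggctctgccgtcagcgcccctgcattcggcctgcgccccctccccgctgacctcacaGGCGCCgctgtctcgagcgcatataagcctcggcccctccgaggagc
Otx2: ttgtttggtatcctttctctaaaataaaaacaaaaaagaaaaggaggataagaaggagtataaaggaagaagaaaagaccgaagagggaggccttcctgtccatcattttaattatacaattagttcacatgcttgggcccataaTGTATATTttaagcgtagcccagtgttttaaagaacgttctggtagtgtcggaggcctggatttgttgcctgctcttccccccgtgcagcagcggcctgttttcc
The GGCGCC of Id2 began 231 bases before the start, those of Trh 180 and 47 bases before it, and the FOXH1 letters of Otx2 105 bases before it. Among 32851 RefSeq windows of the same 250 bases, 9.59% held GGCGCC and 10.9% held AATNNACA on either strand. The motifs do not overlap each other. A match is a description of the letters in the window, and binding was not measured here.

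**Figure D2:**
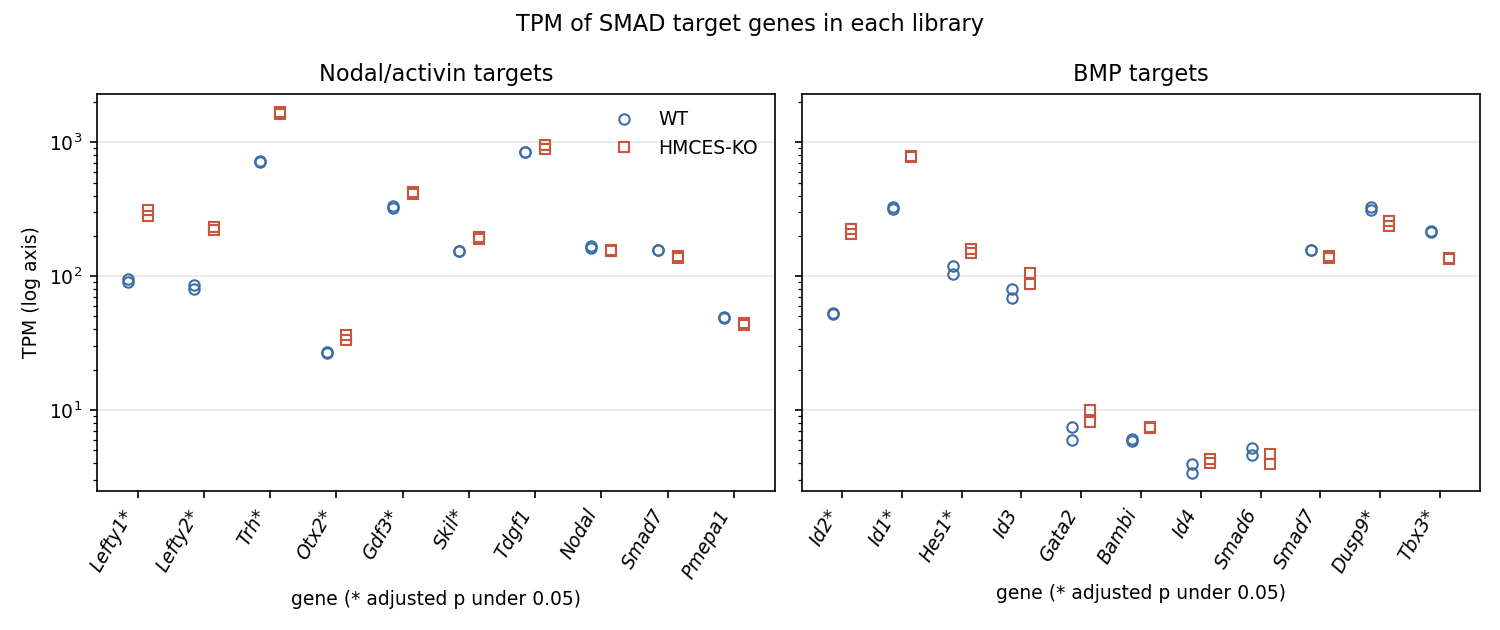
TPM (log axis) in each library for Nodal/activin targets (left) and BMP targets (right), with circles for the 2 WT and squares for the 2 HMCES-KO libraries and a star for an adjusted p under 0.05. Lefty1, Lefty2, Trh, Id2 and Id1 separate most, while Nodal and Smad7 differ little.

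The ligands, antagonists and receptors of the pathway gave few calls. Of 11 tested ligands, 1 was called higher (Gdf3, above) and 2 lower. Inhbb, which encodes the beta B chain of activin, fell from 263 and 268 to 161 and 164 TPM (-0.71 ± 0.04, adjusted p 0.00018). Inha, the alpha chain of inhibin, was low at 4.52 and 3.30 TPM in WT and 1.72 and 1.59 TPM in HMCES-KO and its call was lost when 1 library was left out (adjusted p 0.2 without WT replicate 1). Bmp4 was at 214 and 230.4 TPM in WT and 233 and 246 TPM in HMCES-KO and did not pass the threshold (adjusted p 0.19, and 0.02 in edgeR). Of 11 tested antagonists, Lefty1 and Lefty2 rose and Tmeff1, a membrane protein that interferes with Nodal, fell from 193 and 197 to 159.9 and 149.9 TPM (-0.33 ± 0.05, adjusted p 0.0054).

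Of 18 tested receptors, co-receptors and SMADs, 3 were called higher and 1 lower, and none of these 4 calls held in every refit without 1 library. Acvr1b, the type I receptor of Nodal and activin, went from 58.2 and 60.01 to 45.2 and 47.2 TPM (-0.35 ± 0.06, adjusted p 0.012, and 0.066 without WT replicate 2). Bmpr1a, a type I BMP receptor, went from 78.5 and 77.4 to 92.9 and 88.0 TPM (0.21 ± 0.06, adjusted p 0.039, and 0.15 without WT replicate 2). Foxh1, the partner of SMAD2 and SMAD3 on Nodal targets, went from 112 and 101.2 to 130.0 and 138 TPM (0.33 ± 0.07, adjusted p 0.015, and 0.073 without WT replicate 2). Smad1 went from 31.3 and 31.8 to 39.9 and 45.9 TPM (0.43 ± 0.09, adjusted p 0.017, and 0.066 without WT replicate 1) and lies on chromosome 8, whose genes were high as a group in HMCES-KO. Smad2, Smad3, Smad4 and Smad5 were not called by limma (Smad4 was in edgeR and DESeq2, at an adjusted p of 0.00034 and 0.01), with differences of 0.02, 0.13, 0.17 and 0.03.

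Several naive pluripotency factors fell, Klf4, Tfcp2l1, Nanog and Tbx3 among them. Of 16 tested members, 8 were called lower against 11.7% of all genes and 2 higher, with a median of -0.14. Klf4 fell from 278 and 262 to 197 and 199 TPM (-0.45 ± 0.04, adjusted p 0.0016), Tfcp2l1 from 306 and 297 to 224 and 226 TPM (-0.42 ± 0.04, adjusted p 0.0013) and Nanog from 1041 and 1033 to 858 and 837 TPM (-0.29 ± 0.03, adjusted p 0.002). With Tbx3 these are transcription factors of the naive network, and their calls held whichever library was left out. Esrrb, Nr5a2, Prdm14 and Gbx2 also passed but lost the call without 1 library, at adjusted p values of 0.08 without WT replicate 2, 0.069 without WT replicate 1, 0.19 without WT replicate 1 and 0.1 without WT replicate 1. The number called lower was 4 without WT replicate 1. Klf2, a related factor on chromosome 8, went the other way, from 424 and 437 to 623 and 627 TPM (0.54 ± 0.03, adjusted p 0.00031).

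Of the 12 general pluripotency genes, limma called 4 lower and none higher (1 at an unadjusted p under 0.05, 3 in edgeR and 1 in DESeq2). The core factors were not called by limma, with Pou5f1 differing by 0.02 ± 0.03 (adjusted p 0.032 in edgeR) and Sox2 by -0.03 ± 0.03. Dnmt3l, the cofactor of the de novo methyltransferases, fell from 363 and 376 to 219 and 212 TPM (-0.78 ± 0.04, adjusted p 0.00012), and its call held in every refit without 1 library. Lin28a (-0.22 ± 0.03), Utf1 (-0.20 ± 0.04) and Tet1 (-0.27 ± 0.05) passed with smaller differences, and lost the call without 1 library (adjusted p 0.051 without WT replicate 2, 0.083 without WT replicate 1 and 0.057 without WT replicate 1).

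Genes of formative and primed pluripotency split, with 4 of 14 higher and 5 lower (3 lower in DESeq2). Among those whose calls held, Zic2, a zinc finger factor, went from 22.1 and 22.7 to 38.7 and 45.3 TPM (0.87 ± 0.10, adjusted p 0.002) and Sall3 from 6.50 and 8.38 to 13.3 and 16.6 TPM (0.92 ± 0.17, adjusted p 0.012). Foxd3 fell from 108 and 105 to 76.4 and 80.6 TPM (-0.44 ± 0.06, adjusted p 0.0035), and Etv4, an ETS factor downstream of FGF, from 302 and 319 to 248 and 240.1 TPM (-0.35 ± 0.04, adjusted p 0.0035).

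Neuroectoderm genes all had differences above 0. Of 10 tested, limma called 5 higher and none lower (0 at an unadjusted p under 0.05, 0 in edgeR and DESeq2), with a median of 0.61 beside 6.83% of all genes higher, and 2 of the 5 lie on chromosome 8. Sox1, an early neural factor on that chromosome, went from 11.1 and 10.9 to 17.3 and 21.0 TPM (0.74 ± 0.13, adjusted p 0.0093), and Sox11 on chromosome 12 from 17.5 and 17.4 to 29.0 and 29.6 TPM (0.72 ± 0.09, adjusted p 0.003). Pax6 was at 1.52 and 2.40 TPM in WT and 3.69 and 5.09 TPM in HMCES-KO, Map2 at 4.64 and 4.37 TPM in WT and 7.29 and 7.89 TPM in HMCES-KO and Tubb3 at 131 and 141 TPM in WT and 159 and 179.7 TPM in HMCES-KO. The calls of these 3 were lost without 1 library (adjusted p 0.2 without WT replicate 1, 0.11 without WT replicate 2 and 0.098 without WT replicate 1), and 2 genes of the list were called without WT replicate 1. The levels were low beside the pluripotency factors: the summed TPM of the list was 215 and 225 in WT and 269 and 305.0 in HMCES-KO.

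Endoderm genes lay on the other side. Of 12 tested, limma called 3 lower and none higher (0 at an unadjusted p under 0.05, 0 in edgeR and DESeq2), with 11 below 0 and a median of -0.31 beside 11.7% of all genes lower. Sparc, a matrix glycoprotein, fell from 229 and 215 to 166 and 163 TPM (-0.43 ± 0.05, adjusted p 0.002) and Lama1, a laminin chain, from 34.8 and 32.0 to 20.9 and 20.9 TPM (-0.65 ± 0.09, adjusted p 0.0041). Gata6, a defining factor of primitive endoderm, was at 2.65 and 3.09 TPM in WT and 0.991 and 1.05 TPM in HMCES-KO (-0.93 ± 0.23, adjusted p 0.029, and 0.17 without WT replicate 2). The other defining factors were low, with Gata4 at 3.26 to 3.88 TPM and Sox17 below 0.7 TPM, and Afp and Ttr were listed at 0. The summed TPM of the list was 363 and 344 in WT and 269 and 264 in HMCES-KO, and the part of endoderm cells in these values was not tested.

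Basement membrane genes fell as a group. Of 14 tested, limma called 9 lower and none higher (0 at an unadjusted p under 0.05, 0 in edgeR and DESeq2), 13 were below 0, and the median was -0.35, beside 11.7% of all genes lower. Nid1, which links laminin to collagen IV, fell from 172 and 160.4 to 102 and 97.6 TPM (-0.73 ± 0.05, adjusted p 0.00062), and Lama5 from 32.3 and 28.4 to 19.5 and 17.4 TPM (-0.69 ± 0.11, adjusted p 0.0066). The laminin chain Lamc1 fell from 286 and 277 to 229 and 212 TPM and the heparan sulfate proteoglycan Agrn from 74.8 and 74.1 to 51.4 and 50.9 TPM. Hspg2, or perlecan, was at 38.2 and 36.1 TPM in WT and 26.4 and 26.6 TPM in HMCES-KO, and fibronectin, Fn1, at 314 and 298 TPM in WT and 248 and 241 TPM in HMCES-KO. Of the 9 calls, 8 held whichever library was left out, the exception being Nid2 (adjusted p 0.22 without WT replicate 1). Lama1 and Sparc are in this list too. The chromosome 8 collagens Col4a1 and Col4a2 were not called (-0.21 ± 0.10 and -0.35 ± 0.14).

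Of 9 tested primitive streak and mesoderm genes none was called by limma (1 at an unadjusted p under 0.05, 1 in edgeR and 0 in DESeq2), at levels of 9.37 TPM or less, and Wnt3 had the largest difference at 0.388 and 0.396 TPM in WT and 1.201 and 1.40 TPM in HMCES-KO (0.73 ± 0.27, adjusted p 0.099). Among 7 tested trophectoderm genes, Cdx2 was at 0.704 and 1.58 TPM in WT and 5.37 and 3.77 TPM in HMCES-KO (1.39 ± 0.28, adjusted p 0.016) and lost its call without 1 library (0.062 without WT replicate 1). Tead4, a Hippo pathway factor, rose from 39.4 and 42.3 to 56.7 and 67.9 TPM (0.59 ± 0.10, adjusted p 0.0074), while Tfap2c fell from 45.3 and 43.4 to 32.9 and 31.4 TPM (-0.45 ± 0.07, adjusted p 0.0079). Elf5 and Plac1 were listed at 0. No gene of 2-cell-like cells passed the filter, and the 10 present summed to 0.594 to 0.992 TPM a library.

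Germline genes, which DNA methylation often silences, all had differences below 0. Of 12 tested, limma called 4 lower and none higher (0 at an unadjusted p under 0.05, 0 in edgeR and DESeq2), with a median of -0.42. Tdrd12, a piRNA factor, fell from 25.6 and 26.1 to 14.4 and 15.4 TPM (-0.76 ± 0.10, adjusted p 0.0036) and Tex19.1 from 47.2 and 47.4 to 33.9 and 33.9 TPM (-0.47 ± 0.07, adjusted p 0.0053). DESeq2 called 2 genes of the list lower and did not call Tex19.1 (adjusted p 0.115). Dazl, a germ cell RNA-binding protein, was at 5.40 and 5.73 TPM in WT and 1.55 and 2.61 TPM in HMCES-KO and lost its call without 1 library (0.079 without WT replicate 2), as did Ddx4 (0.17 without WT replicate 1).

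Of 13 tested genes that write, read or erase DNA methylation, limma called 7 lower and none higher. Higher were 1 at an unadjusted p under 0.05, 1 in edgeR and 1 in DESeq2. The median was -0.16, with 8 below 0 and 5 above 0, beside 40.8% of all genes above 0. DESeq2 called 3 lower. Of the 7, the fall of Dnmt3l alone held in every refit without 1 library. The differences were -0.27 for Tet1 and -0.18 for Tet2, which oxidise 5-methylcytosine, -0.25 for Dnmt3b, -0.16 for Dnmt1, -0.17 for its partner Uhrf1, and -0.50 for the reader Mbd1. With TMM scaling 4 of the list were called lower, and 2 without WT replicate 1 as well as without WT replicate 2. Dnmt3a was not called by limma (0.16 ± 0.06, adjusted p 0.1) but was higher in edgeR and DESeq2 (adjusted p 0.00033 and 0.0045).

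Repair genes gave few calls beside Hmces itself, of which the fall of Brca2 was the largest. Of 19 genes of abasic-site and base excision repair, limma called 3 lower, Hmces among them, and none higher (2 at an unadjusted p under 0.05, 1 in edgeR and 1 in DESeq2). Ung, which removes uracil and leaves abasic sites, differed by -0.19 ± 0.05 and Parp1, which senses the resulting breaks, by -0.15 ± 0.03. Both calls were lost with TMM scaling and without 1 library (0.23 without WT replicate 2 and 0.14 without WT replicate 1). Apex1, the main endonuclease at abasic sites, was at 680.1 and 702 TPM in WT and 688 and 665 TPM in HMCES-KO (-0.03 ± 0.04, adjusted p 0.58). Of 19 Fanconi, recombination and translesion genes, 1 was called, Brca2, which fell from 79.3 and 71.7 to 45.8 and 44.7 TPM (-0.72 ± 0.07, adjusted p 0.0014) in a call that held whichever library was left out.

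Of 17 tested p53 targets, limma called 5 lower and none higher (0 at an unadjusted p under 0.05, 0 in edgeR and DESeq2), with a median of -0.08. DESeq2 called 2 of them lower. Sesn2, a stress-induced regulator of TORC1, fell from 172 and 165 to 136 and 131 TPM (-0.33 ± 0.05, adjusted p 0.0051). The other 4, Mdm2, Phlda3, Zmat3 and Gtse1, lost their calls without 1 library (adjusted p 0.11 without WT replicate 1, 0.07 without WT replicate 1, 0.17 without WT replicate 1 and 0.072 without WT replicate 1). Cdkn1a, the cell cycle inhibitor best known as a p53 target, was at 75.9 and 73.8 TPM in WT and 73.9 and 68.0 TPM in HMCES-KO and was not called (adjusted p 0.43).

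Within the FGF-ERK list, 3 of 16 rose and 2 fell, and these 5 calls held in every refit without 1 library, while edgeR called 8 higher. Fgf15, a ligand, rose from 46.9 and 49.0 to 70.7 and 72.7 TPM (0.57 ± 0.06, adjusted p 0.002). The ERK phosphatase Dusp6 rose from 242 and 227 to 324 and 332 TPM (0.48 ± 0.05, adjusted p 0.0013) and Dusp4, on chromosome 8, from 16.3 and 17.2 to 39.7 and 38.6 TPM (1.18 ± 0.09, adjusted p 0.00054). The falls were of Dusp9 and Etv4, 2 of 16 against 11.7% of all genes lower. Among 11 immediate early genes the 3 that rose, Junb (0.56 ± 0.04), Jund (0.49 ± 0.05) and Ier2 (0.58 ± 0.04), all lie on chromosome 8. Fos, Jun and Egr1, which lie elsewhere, differed by -0.15, 0.04 and -0.11 and were not called, and Myc was called lower (-0.19 ± 0.04, adjusted p 0.012, and 0.078 without WT replicate 1).

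Wnt targets went both ways, with 2 of 12 higher and 3 lower against 6.83% and 11.7% of all genes, and DESeq2 called 1 in each direction. Sp5, a direct target, rose from 2.73 and 2.50 to 7.96 and 7.06 TPM (1.23 ± 0.17, adjusted p 0.0048), and Notum, a secreted Wnt inhibitor, fell from 67.1 and 65.4 to 47.3 and 48.4 TPM (-0.46 ± 0.06, adjusted p 0.0039). Axin2, the feedback scaffold, was not called (-0.44 ± 0.13, adjusted p 0.053, and 0.014 in edgeR). Among 13 retinoic acid genes 3 were called lower, of which Stra8, a retinoic acid induced germ cell gene, fell from 13.2 and 12.6 to 5.88 and 5.50 TPM (-1.05 ± 0.13, adjusted p 0.0035). DESeq2 did not call Stra8.

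Hypoxia and glycolysis genes showed 5 of 18 higher and 2 lower against 6.83% and 11.7% of all genes, with a median of -0.02. Of these 7 calls the fall of Vegfa, an angiogenic growth factor, held in every refit without 1 library, from 46.2 and 39.8 to 22.5 and 27.2 TPM (-0.77 ± 0.12, adjusted p 0.0059). Of 15 integrated stress response genes 3 were higher (8 with TMM scaling) and 2 lower, led by Phgdh, the first enzyme of serine synthesis, at 14.7 and 11.7 TPM in WT and 24.2 and 28.8 TPM in HMCES-KO (0.96 ± 0.14, adjusted p 0.0053). Atf4, the central factor of that response, was not called by limma (0.06 ± 0.03, adjusted p 0.2) but was higher with TMM scaling, in edgeR and in DESeq2 (adjusted p 0.035, 0.0045 and 0.03).

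The maternally expressed noncoding RNAs of the imprinted Dlk1-Dio3 cluster on chromosome 12 rose together. Rian was at 49.5 and 47.3 TPM in WT and 114 and 110.3 TPM in HMCES-KO (1.19 ± 0.06, adjusted p 8e-05), Meg3 at 12.4 and 13.6 TPM in WT and 20.2 and 21.3 TPM in HMCES-KO (0.64 ± 0.11, adjusted p 0.0088) and Mirg at 12.8 and 9.74 TPM in WT and 22.4 and 21.8 TPM in HMCES-KO (0.92 ± 0.14, adjusted p 0.006). The paternally expressed Dlk1 and Dio3 were below 3 TPM and were not called. Outside the cluster, 5 of 22 imprinted genes rose and 2 fell, against 6.83% and 11.7% of all genes. Impact, an inhibitor of GCN2, rose from 192 and 190.2 to 343 and 343 TPM (0.84 ± 0.04, adjusted p 6.7e-05) and Mest from 169 and 158 to 233 and 213 TPM (0.44 ± 0.06, adjusted p 0.0039). Grb10, a growth suppressor, fell from 28.3 and 30.3 to 16.6 and 15.7 TPM (-0.82 ± 0.09, adjusted p 0.0024) and Phlda2 from 121 and 134 to 69.9 and 86.8 TPM (-0.70 ± 0.10, adjusted p 0.0052).

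Of 34 cytosolic ribosomal protein genes, 2 were called higher and 6 lower, against 6.83% and 11.7% of all genes, and DESeq2 called 3 lower. Many of them have near-identical pseudogene copies, so their counts are uncertain, and their levels ranged widely. Rpl5 was at 15.7 and 16.5 TPM in WT and 10.5 and 9.50 TPM in HMCES-KO (-0.63 ± 0.12, adjusted p 0.013, and 0.066 without WT replicate 2), and Rpl8 at 7251 and 7493 TPM in WT and 7745 and 7742 TPM in HMCES-KO. Several differed more between the HMCES-KO libraries than between the groups: Rpl32 was at 138 and 134 TPM in WT and 162 and 256 TPM in HMCES-KO, and Rps4x at 38.5 and 38.7 TPM in WT and 31.4 and 62.0 TPM in HMCES-KO. Nuclear-encoded respiratory chain subunits showed 5 of 28 higher, of which Cox4i1 (0.31 ± 0.03) and Ndufb7 (0.31 ± 0.04) lie on chromosome 8, and 3 lower, none of which DESeq2 called.

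**Figure D3:**
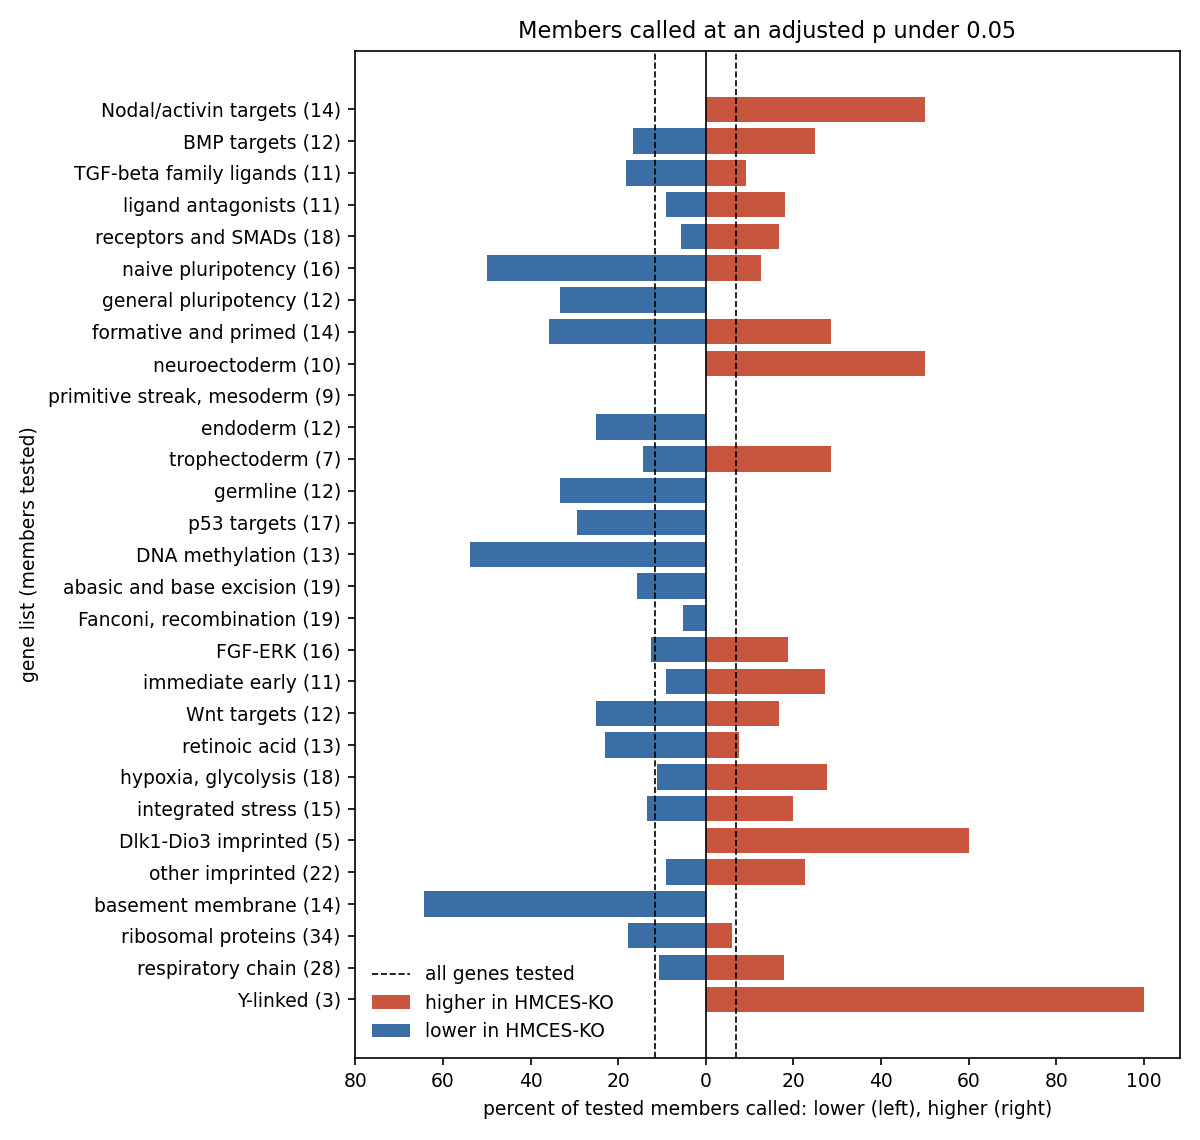
Percent of the tested members of each list called higher (right, red) or lower (left, blue) in HMCES-KO, with the number tested in brackets and dashed lines at the shares over all genes, 6.83% and 11.7%. Nodal/activin targets and neuroectoderm genes reach farthest to the right among lists of 10 or more members, and basement membrane genes farthest to the left.

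Y-linked genes rose together. Ddx3y, an RNA helicase, was at 14.5 and 14.5 TPM in WT and 55.5 and 51.9 TPM in HMCES-KO (1.82 ± 0.08, adjusted p 6.7e-05). Uty, a histone demethylase paralog, was at 3.68 and 3.65 TPM in WT and 13.5 and 14.4 TPM in HMCES-KO (1.68 ± 0.14, adjusted p 0.00086), and Eif2s3y, a translation factor subunit, at 21.7 and 24.7 TPM in WT and 54.4 and 50.2 TPM in HMCES-KO (1.14 ± 0.09, adjusted p 0.00074). Kdm5d was listed at 0 in every library. All 3 tested genes were present in both groups, and each has an X-linked paralog with which reads could be shared. Xist, the X-inactivation RNA, did not pass the filter, at 1.21 and 0.982 TPM in WT and 0.257 and 0.319 TPM in HMCES-KO.

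The calls were spread unevenly over the chromosomes. On chromosome 8, 283 of 716 tested genes (39.5%) were called higher and 17 (2.37%) lower, and the median difference was 0.24. Chromosome 8 held 5.46% of the tested genes and 31.6% of the genes called higher. Measured against the mean of WT, the chromosome 8 median was 0.25 in HMCES-KO replicate 1 and 0.24 in replicate 2. Each of the 13 bins of 10 Mb had a median above 0, between 0.11 and 0.34, with 12 genes in the smallest bin. Genes before 30 Mb had a median of 0.23 and those from 30 Mb on one of 0.24. The share of all TPM from this chromosome was 5.61% and 5.58% in WT and 6.79% and 6.71% in HMCES-KO. The number called higher was 179 without WT replicate 2. Outside chromosome 8, 4.94% of genes were called higher and 12.2% lower.

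Chromosome 1 leaned the other way, with a median of -0.15 and 23.8% of its 701 genes called lower against 2.43% higher, although Lefty1 and Lefty2 lie on it. All 20 of its bins of 10 Mb had a median below 0, with 4 genes in the smallest. Chromosome 6, which carries Hmces, had a median of 0.05 with 15.2% called higher, and Trh, Vax2, Hoxa10 and Gdf3 are among its risen genes. Of the autosomes and X, the remaining chromosomes had medians between -0.11 and 0.00. None of the risen Nodal/activin or BMP targets lies on chromosome 8.

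**Figure D4:**
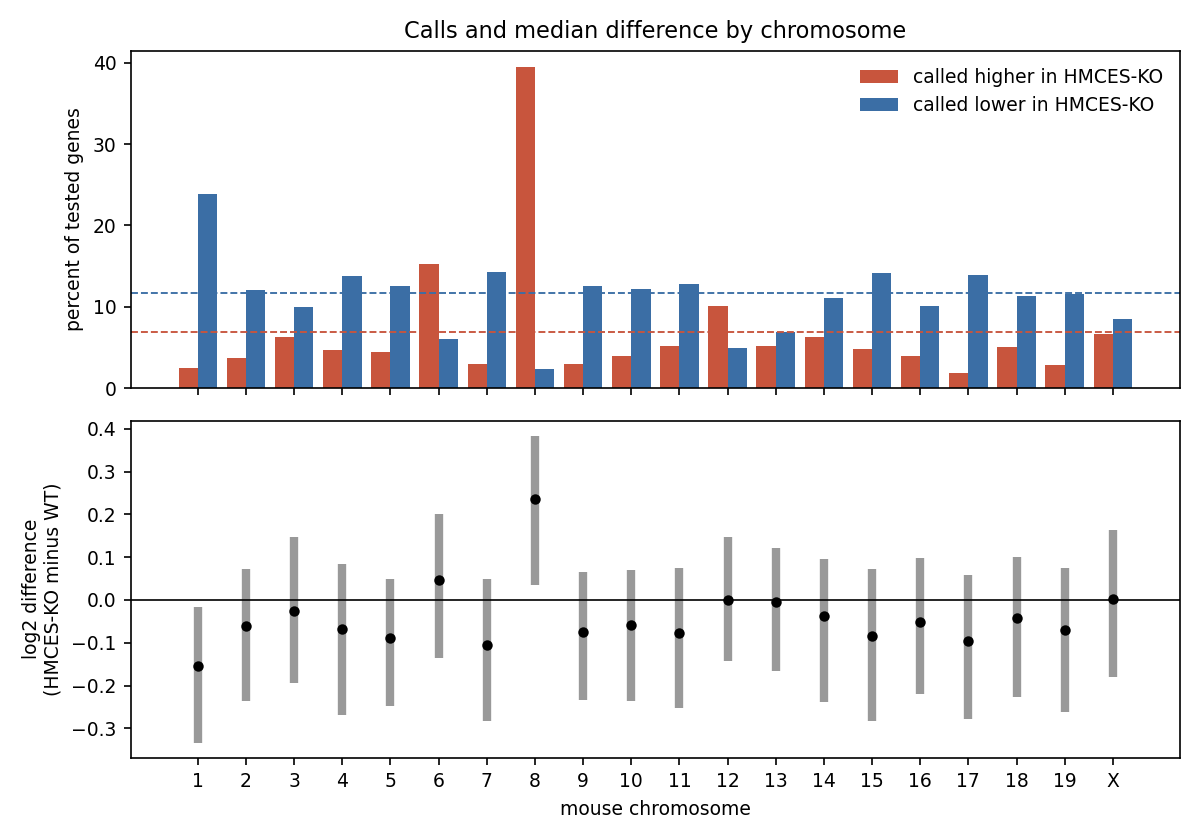
Upper panel: percent of tested genes on each mouse chromosome called higher (red) or lower (blue) in HMCES-KO, with dashed lines at the shares over all genes. Lower panel: median (dot) and quartiles (bar) of the log2 difference of each chromosome, where chromosome 8 stands at 0.24 and chromosome 1 at -0.15.

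To see how far the contrast matched that of the count table, counts there were turned into TPM with the same gene lengths and all 10 untreated libraries were fitted together. The difference between HMCES-KO minus WT in the TPM table and the mean of both lines minus WT in the count table was called by limma at 3132 of 13815 genes (22.7%). Of the 895 genes called higher in the TPM table, 316 were also called higher in the count table and 143 were called lower there. Of the 1531 called lower, 506 were called lower and 263 higher. The share of all genes that the count table called in each direction is not given here, so these overlaps are a description only. Across these 13815 genes, which are not independent, the Pearson correlation of the fold changes was 0.21 with the mean of the lines, 0.25 with KO7 and 0.13 with KO8. The WT groups of both tables themselves differed at 7239 genes, so levels are set beside each other only within a table.

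Id2 was high in HMCES-KO in both tables: its count-table differences were 1.52 in KO7 and 1.54 in KO8, and the TPM table exceeded them by 0.48 ± 0.16 (adjusted p 0.049). For most of the Nodal/activin targets the tables went apart. Lefty1 was -0.54 in KO7 and -0.78 in KO8, against the rise of 1.67 in the TPM table, a difference of 2.33 ± 0.08 (adjusted p 1e-07). Lefty2 was 0.22 in KO7 and -0.73 in KO8 (difference 1.70 ± 0.08, adjusted p 2e-06). Trh was 0.45 in KO7 and 0.05 in KO8 (difference 0.96 ± 0.09, adjusted p 0.00011), and Id1 0.18 in KO7 and 0.31 in KO8 (difference 1.03 ± 0.07, adjusted p 3e-05). Of the 14 Nodal/activin targets, 7 were relatively higher in the TPM table by this test and 1 lower. Over all genes 22.7% differed in either direction, and their split by direction is not given. The median difference of the 14 targets was 0.33 in the TPM table, -0.36 in KO7 and -0.27 in KO8.

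Endoderm genes fell less than in the count table. Their median was -0.31 here, -1.18 in KO7 and -1.78 in KO8, and 10 of 12 differed between the tables. Dab2, an endocytic adaptor of visceral endoderm, was at 6.52 and 6.07 TPM in WT and 4.91 and 4.95 TPM in HMCES-KO and not called, while its count-table differences were -1.67 in KO7 and -2.97 in KO8 (the TPM table exceeded them by 2.02 ± 0.21, adjusted p 0.00024). Of 18 hypoxia and glycolysis genes, 13 were relatively higher here and 1 lower, beside those 22.7%. The WT libraries of the count table were far apart for Ndufa4l2, 1 of these genes. Dlk1-Dio3 RNAs were higher in both tables. The median of the list was 1.68 in KO7 and 1.58 in KO8 of the count table, against 0.64 here. Of its 5 tested members, 3 differed between the tables, and all 3 were relatively lower here, beside those 22.7%. Naive factors, with a median of -0.14 here, showed no such lean in the count table, with medians of 0.06 in KO7 and -0.02 in KO8.

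Several genes, chosen after their values were seen, had the direction of KO7 and not of KO8. Dnmt3l was -1.43 in KO7 and 0.07 in KO8, Tex19.1 -1.15 in KO7 and 0.19 in KO8 and Vax2 2.10 in KO7 and -0.01 in KO8. The median of chromosome 8 was 0.21 in KO7 and -0.05 in KO8, beside 0.24 here. KO7 did not match over the whole chromosome. Before 30 Mb the median was -0.14 in KO7 and -0.02 in KO8, against 0.23 here. From 30 Mb on it was 0.28 in KO7 and -0.06 in KO8, against 0.24 here. Chromosome 6 did not follow either line, at -0.33 in KO7 and -0.26 in KO8 against 0.05. Of the Y-linked genes, Ddx3y was 0.80 in KO7 and -0.66 in KO8, where the count-table TPM were 20.5 and 16.6 in WT, 31.7 and 34.1 in KO7 and 11.1 and 11.5 in KO8. How many genes had the direction of KO8 and not of KO7 is not given here, nor the reverse. Which line the HMCES-KO libraries of the TPM table came from is not given, and no test of that was made.

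**Figure D5:**
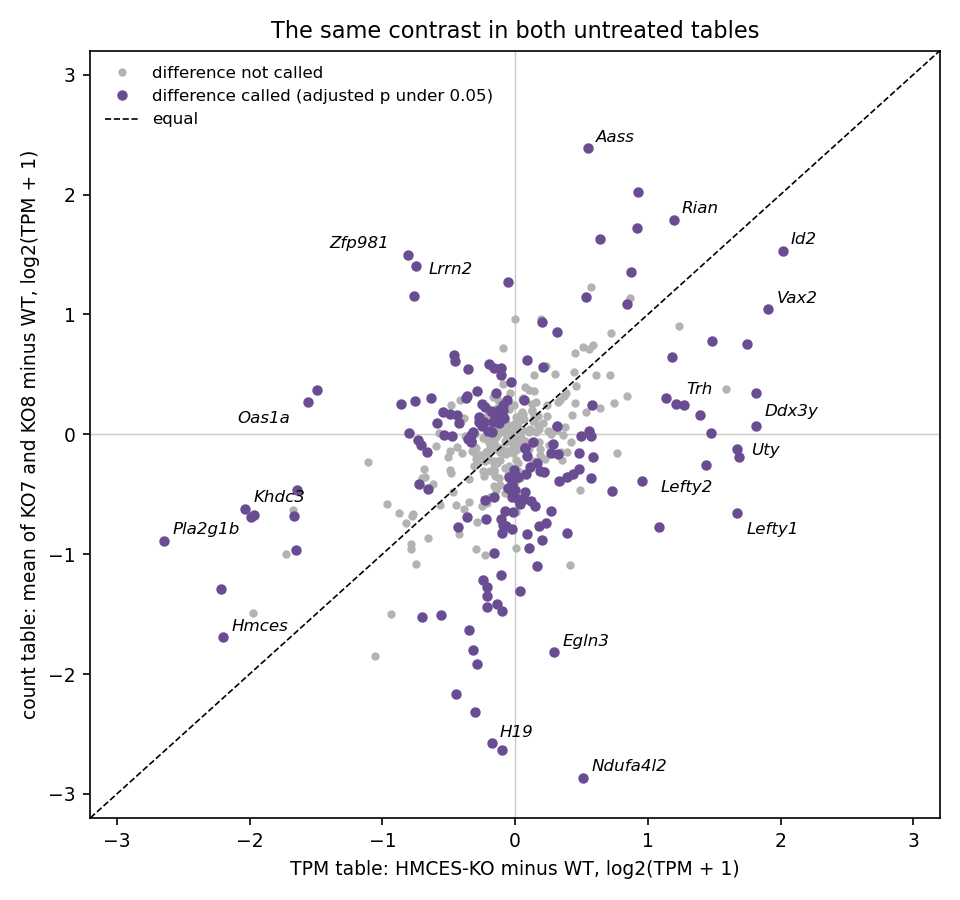
Log2 difference of HMCES-KO minus WT for the named genes in the TPM table (horizontal) and in the count table as the mean of KO7 and KO8 (vertical), from 1 fit of all 10 untreated libraries. Purple points differ between the tables at an adjusted p under 0.05, and Lefty1 lies at 1.67 on the horizontal and below 0 on the vertical axis.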

How the data were processed

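RNA of untreated WT and HMCES-KO cells was purified with a TIANGEN kit and made into libraries with an Illumina TruSeq kit, per the labels. The authors deposited TPM for 4 libraries. They also deposited raw counts of read pairs for 6 others, made with featureCounts 2.0.1 on mm10, per the file headers. FastQC 0.11.5, Bowtie2 2.3.3, SAMtools 1.9 and DESeq2 are named per the submitters' processing notes. The sources used here do not tell how the TPM was made from alignments.

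Groups came from the labels. TPM was tested with limma 3.58.1 (R 4.3.3) with a trended variance on log2(TPM + 1), on genes of 200 bases or more whose TPM reached 1 in 2 or more libraries. A called gene has a Benjamini-Hochberg adjusted p under 0.05. Alternatives were edgeR 4.0.16 and DESeq2 1.42.0 on the recovered reads, other pseudocounts and filters, TMM scaling, a replicate block and leaving out each library. Scripts were tested on simulated data. The members and the 32 gene lists were chosen with earlier results of these data known, so a list is given by counts and medians beside all genes, with no test of its own. Named genes are Hmces, the 12 highest and 12 lowest called genes with non-overlapping groups and a mean of at least 5 TPM in 1 group, list members, and the 6 highest and 6 lowest differences between the tables; unnamed gene models were left out, and 2 genes covered by this rule are not reported here. The depth of 8.52 to 10.0 recovered reads a library, in units of 1000000, limits what can be seen at low levels.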

Additional observations from a re-analysis of the deposited data

Results flagged for a closer look

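The difference between HMCES-KO and WT was not the same in both untreated tables at 3132 genes, by limma's test of that difference itself. Among called genes, those by which the TPM table exceeded the count table most included Ndufa4l2 (3.38), Lefty1 (2.33), Egln3 (2.12), Uty (1.87) and Ube2e1 (1.86), all as log2 differences of differences. Ndufa4l2 and Egln3 are hypoxia-responsive genes. Their calls in the TPM table were lost in DESeq2 and in some refits without 1 library. Ndufa4l2 was at 26.0 and 21.1 TPM in WT and 30.2 and 38.1 TPM in HMCES-KO in the TPM table, and in the count table at 140.1 and 66.4 in WT, 21.6 and 18.2 in KO7 and 9.59 and 6.01 in KO8, so the WT libraries of that table were far apart. Egln3 was at 37.6 and 37.1 TPM in WT and 46.1 and 46.0 TPM in HMCES-KO and was -1.37 in KO7 and -2.27 in KO8 in the count table. Uty was 0.19 in KO7 and -0.57 in KO8 in the count table, and Ube2e1, a ubiquitin-conjugating enzyme, -0.81 in KO7 and -0.74 in KO8.

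On the other side stood Zfp981 (-2.30), Lrrn2 (-2.15), Aoah (-1.91), Rpl30 (-1.86), Aass (-1.84) and Oas1a (-1.83). Lrrn2, a leucine-rich repeat protein, fell here from 15.0 and 15.1 to 7.83 and 9.36 TPM and was higher in both lines of the count table, 1.80 in KO7 and 1.02 in KO8. Aoah fell from 13.8 and 12.6 to 8.30 and 6.54 TPM and was 0.96 in KO7 and 1.34 in KO8. Zfp981 fell from 14.3 and 12.6 to 6.13 and 8.55 TPM and was 1.11 in KO7 and 1.89 in KO8, and its zinc finger family has close copies that could share reads. Aass, an enzyme of lysine breakdown, was higher in HMCES-KO in both tables, by 0.55 here and by 1.36 in KO7 and 3.41 in KO8. Oas1a, an interferon-induced gene, fell from 5.28 and 4.90 to 1.07 and 1.07 TPM and was 0.35 in KO7 and 0.19 in KO8. Rpl30 was at 6.27 and 4.44 TPM in WT and 0.919 and 1.61 TPM in HMCES-KO and is uncertain because of its pseudogene copies. The calls of Zfp981, Aoah, Rpl30 and Aass in the TPM table were lost in some refits without 1 library, and that of Aass also in DESeq2. Those of Lrrn2 and Oas1a held in every such refit.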

How the results depend on the processing

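The total of 2426 calls became 1611 without the low-value filter (586 higher), 396 with an untrended variance (113 higher, 283 lower) and 1559 in DESeq2 (699 lower), and edgeR called 1822 higher. Leaving out 1 library gave 1124 to 3120 calls, 448 to 1128 higher and 653 to 1992 lower, with the lone library taken to vary like the other group. Replicate numbers did not pair the libraries (correlation of deviations -0.02), and a replicate block gave 2450 calls. Of the 156 calls among named genes, 103 were lost with an untrended variance, 55 without WT replicate 2, 53 without WT replicate 1, 37 without the filter, 35 in DESeq2 (of 143 with a value), 16 without HMCES-KO replicate 2, 13 with TMM, 6 with the replicate block and 12 or fewer under each other alternative. With an untrended variance, 4 Nodal/activin targets and 2 neuroectoderm genes were higher, and 1 naive, 3 basement membrane and 1 methylation gene lower. Without the filter, 3 neuroectoderm genes were higher and 4 methylation genes lower, and methylation genes lower were 4 with TMM and 3 in DESeq2. Without 1 library the counts ran from 6 to 8 for Nodal/activin targets, 3 to 4 for BMP targets, 2 to 6 for neuroectoderm, 4 to 8 for naive, 8 to 9 for basement membrane, 2 to 8 for methylation and 3 to 3 for Y-linked genes. The chromosome 8 median of 0.24 was 0.25 at a pseudocount of 0.1, 0.20 at 5, 0.19 without the filter, 0.26 with a TPM of at least 5, 0.29 with TMM, 0.31 in edgeR and 0.30 in DESeq2. Without 1 library it was 0.23 to 0.25, with 179 to 290 genes higher, and with an untrended variance 30 genes were higher. Aldoa and Atp5h, not called with all libraries, were at 0.15 and 0.33 without HMCES-KO replicate 1 and at -0.18 and -0.38 without replicate 2. None of the 156 called named genes changed direction in the 15 alternatives, where it had a value. The difference between the tables was called at 2757 to 3643 genes over its alternatives. The cause of these shifts was not tested. With 2 libraries a group, genes at a few TPM are measured from few reads.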
